A study of Mus musculus with 4 samples.

Results

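The clustered zinc finger genes are a set of mouse transcription factor genes that lie side by side in tandem arrays. The set held 214 of the 20558 autosomal protein-coding genes of the RefSeq annotation. A gene was taken when its symbol is Zfp, Zscan or Zkscan with a number, Rsl1 or Rslcan with a number, and when at least 2 other such genes start within 200 kb of its own start. Zfp804a, Zfp804b and Zfp264 were left out. The rule uses names and positions, and was drawn up with earlier results of these data known. The other 199 autosomal genes with such names, which have fewer close relatives nearby, are called isolated zinc finger genes here. Chained by starts within 200 kb, the 214 genes formed 35 clusters of 1 to 25 genes on 14 chromosomes.

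H3K9me3, the trimethylated form of histone H3 lysine 9 that marks silent chromatin, was profiled by chromatin immunoprecipitation and sequencing in mouse CD8+ T cells lacking the histone methyltransferase gene Suv39h1 (Suv39h1-KO, below KO) and in wild-type cells (WT). Both were of C57BL/6 background, the wild-type cells being from littermates, and were cultured for 3 days under stimulation through CD3 and CD28 in the presence of interleukin-2. Not given in the sources used here are how the knockout allele was made, the age of the mice and how many were pooled. There was 1 H3K9me3 library per genotype, each present as a list of islands, which are stretches of the genome called as enriched, and the input libraries are not analysed here. The KO list held 25424 islands with 10020253 reads, and the WT list held 12371 islands with 5547695 reads. Without replicates the genotypes could not be tested against each other, and all values below describe these libraries. A gene listed without an island can still carry the mark below the calling threshold. An island list of a silencing mark cannot check a cell type. Of 13 T cell, B cell and myeloid marker genes, Cd8a and Cd3e among them, 0 had an island in KO and 0 in WT.

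Most proteins of this family carry arrays of C2H2 zinc fingers that read DNA sequence, and many carry a KRAB domain as well. The KRAB domain binds TRIM28, which brings in the methyltransferase SETDB1 and lays down H3K9me3 at the bound site, often a retrotransposon. The zinc finger genes are themselves known as H3K9me3 targets in many cell types, above all over the last exon, which encodes the finger array. SUV39H1 and SUV39H2 are the enzymes of pericentromeric H3K9me3. These statements are background, and none was measured here.

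Islands lay over a larger share of clustered zinc finger genes than of protein-coding genes at large in both libraries, and over fewer of them in KO than in WT. With 2 kb added on each side of a gene, 59 of 214 (27.6%) had an island in KO and 71 (33.2%) in WT. Over all 20558 autosomal protein-coding genes the shares were 14.5% in KO and 14.8% in WT. Because a long gene meets an island more easily, they were also set beside the 7261 genes with regions of 12.4 to 36.5 kb, the 10th to 90th percentile of the members. In that length range 6.57% of genes had an island in KO and 8.55% in WT. Members of a cluster can share an island, so genes are not independent counts and no interval is given.

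Most members with an island in either library had one in both, though these could lie apart, as over Zfp119b (0 kb shared). An island was present in both libraries over 50 members, in KO alone over 9 (4.21%), in WT alone over 21 (9.81%) and in neither over 134. The shares over all autosomal protein-coding genes were 8.03% in both, 6.52% in KO alone and 6.77% in WT alone. The share in KO alone was thus near or under that over all genes, and the share in WT alone was above it. Over genes of the members' length range the shares were lower, at 3.18% in KO alone and 5.16% in WT alone. Over isolated zinc finger genes they were 3.02% in KO alone and 9.55% in WT alone. The WT-alone share of the members was thus near that of isolated zinc finger genes. Of the members with a KO island, 84.7% also had a WT island, against 55.2% of all genes with a KO island. Of the members with a WT island, 70.4% also had a KO island, against 54.3% of all genes with a WT island. Among isolated zinc finger genes, 82.4% of those with a KO island also had a WT island, and 59.6% the reverse. Among genes of the members' length range these shares were 51.6% and 39.6%.

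Genes just inside and just outside the neighbour rule were also looked at. Of the 37 genes with 2 close relatives, 8 had an island in KO and 11 in WT. Of the 56 genes with 1 close relative, which are not members, 12 had an island in KO and 14 in WT. The 199 isolated zinc finger genes had one in 34 cases (17.1%) in KO and 47 (23.6%) in WT. The 55 protein-coding genes of other families inside the clusters had one in 2 cases (3.64%) in KO and 6 (10.9%) in WT. These sets were not tested against each other.

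**Figure D1:**
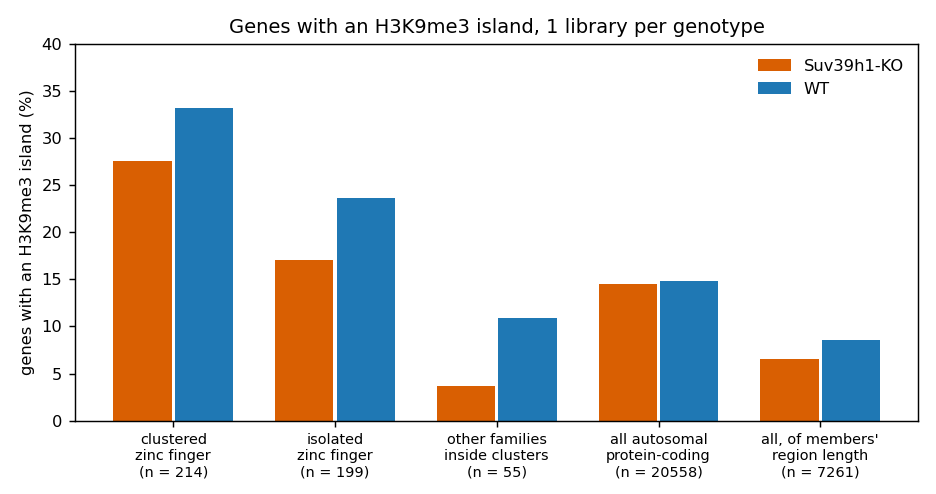
Share of genes with an H3K9me3 island (percent, vertical axis) in 5 sets of genes, with 1 bar for the KO library and 1 for the WT library in each. Clustered zinc finger genes stand at 27.6% in KO and 33.2% in WT, and genes of other families inside the same clusters at 3.64% and 10.9%.

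Less of the members' sequence lay in islands in KO than in WT, while over the autosomes the relation was the other way round. Over the joined regions of the members, 5.41 Mb in all, islands covered 580.0 kb (10.7%) in KO and 757 kb (13.997%) in WT, a ratio of 0.766. Over all autosomal sequence they covered 249 Mb in KO and 136 Mb in WT, a ratio of 1.83. Over the regions of all protein-coding genes the ratio was 1.503. A KO over WT ratio under 1 was not particular to zinc finger genes. It was 0.778 over genes of the members' length range and 0.822 over isolated zinc finger genes. Over the whole spans of the 35 clusters, spaces between genes included, islands covered 883 kb in KO and 1315 kb in WT, a ratio of 0.671.

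The KO cover lay largely inside the WT cover. The libraries shared 444 kb over the members, which was 76.5% of the KO cover and 58.6% of the WT cover. Over the regions of all protein-coding genes, shared cover was 19.4% of the KO cover and 29.1% of the WT cover. Over genes of the members' length range it was 40.4% of the KO cover and 31.4% of the WT cover. Over isolated zinc finger genes it was 65.2% of the KO cover and 53.6% of the WT cover, so high sharing was not particular to the clusters. Of the 76 KO islands over members, 34 (44.7%) lay wholly inside WT islands, and of the 81 WT islands over members, 17 (20.99%) lay wholly inside KO islands. Over all autosomal islands these shares were 6.82% in KO and 9.09% in WT.

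Where both libraries had islands over a member, cover was 0.114 to 58.1 kb in KO, with a median of 7.87 kb, and 1.18 to 60.1 kb in WT, with a median of 10.9 kb. Of the 50 members covered in both, 13 had longer cover in KO, 31 had longer cover in WT and 6 had equal cover. The median difference, KO minus WT, was -1.29 kb. Of the 1651 protein-coding genes covered in both libraries, 46.8% were longer in KO and 45.7% in WT, with a median difference of 0 kb. Among such genes of the members' length range, 36.6% were longer in KO and 55.3% in WT (median -0.54 kb). Among such isolated zinc finger genes it was 28.6% in KO and 53.6% in WT (median -0.75 kb). The lean to longer WT cover was thus not particular to the clusters. Across the 80 members covered in either library, KO and WT cover correlated with Pearson r 0.837 and Spearman rho 0.564. Without chromosome 4 the values were 0.537 and 0.498 across 70 members. These are descriptions across genes, which share islands and libraries and are not replicates.

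**Figure D2:**
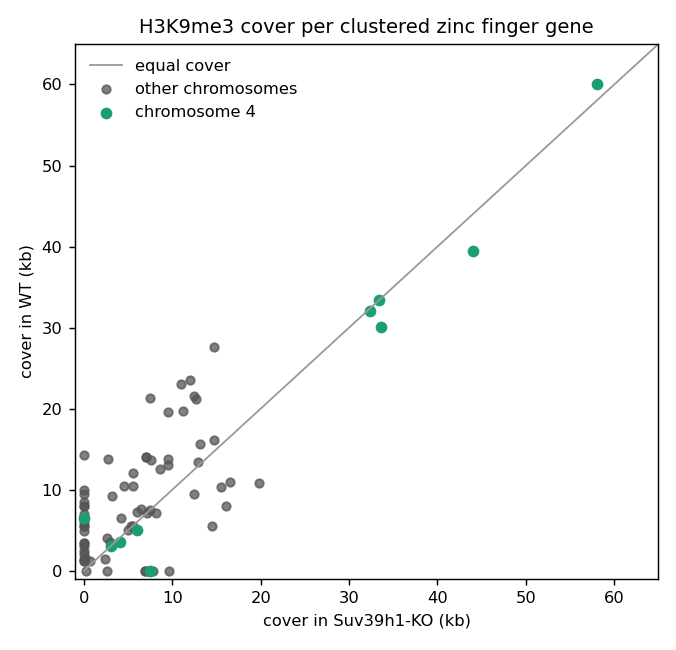
Length of H3K9me3 cover per clustered zinc finger gene with an island in either library, in kb, with KO on the horizontal and WT on the vertical axis, 1 point per gene and a line of equal cover. Chromosome 4 genes covered in both libraries, up to 58.1 kb in KO and 60.1 kb in WT, lie near the line, Zfp984 (7.5 kb in KO, 0 kb in WT) and Zfp933 (0 kb in KO, 6.5 kb in WT) lie on the axes, and most other genes covered in both libraries lie on its WT side.

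The longest cover in both genotypes was over the tandem genes of distal chromosome 4, an array known from mouse embryonic stem cells to encode repressors of retrotransposons. Zfp982 (chr4:147443114-147516064, mm10) had 58.1 kb in KO and 60.1 kb in WT, an order that turned with 10 kb on each side. Zfp985 (chr4:147553277-147585201) had 33.4 kb in KO and 33.4 kb in WT, the same 33.4 kb in both, or 93.0% of its region. Zfp981 (chr4:146502000-146539395) had 32.4 kb in KO and 32.0 kb in WT. These 3 genes were covered over most of their length and largely at the same bases. The very long annotated genes Zfp993 and Zfp978 had less of their regions covered. Zfp993 (chr4:146512849-146991471) had 44 kb in KO and 39.5 kb in WT, an order that turned with equal numbers of islands in the lists, and Zfp978 (chr4:147124882-147392027) had 33.6 kb in KO and 30.1 kb in WT. Zfp981 and Zfp993 overlap, as do Zfp978 and Zfp988, so an island there counts for both genes of the pair.

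The chromosome 4 clusters are set beside the others here, a split chosen after the values were seen. Its 12 members, in 2 clusters, had 190 kb covered in KO and 181 kb in WT, a ratio of 1.05, and 90.3% of the WT cover was shared. The 202 members elsewhere had 390 kb covered in KO and 576 kb in WT, a ratio of 0.678, and 48.6% of the WT cover was shared. Of the 42 of them covered in both libraries, 8 were longer in KO and 30 in WT. On other chromosomes, cover was also longer in KO over the members of chromosome 13, with 86.0 kb in KO and 82.1 kb in WT, and of chromosome 18, with 13.2 kb in KO and 5.5 kb in WT. The chromosome 4 islands were also the densest in reads. Their median was 66.1 reads per kb in KO and 65.5 in WT, at percentile 99.7 of the KO list and 99.5 of the WT list. Elsewhere it was 42.9 reads per kb in KO (percentile 77.0) and 45.4 in WT (percentile 86.9). Tandem genes of close sequence share reads that can be placed at several of them, and the handling of such reads is not given in the sources, so single genes of the array are uncertain. The part of such reads in the density of these islands was not tested.

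Island density over the members was high in both lists as a whole. The 76 KO islands had a median of 44.5 reads per kb, and 44.7% of them were among the densest 10% of their list. The 81 WT islands had a median of 46.8, and 54.3% were among the densest 10%. Islands that met an island of the other genotype were denser than those that did not. The medians were 44.9 and 41 reads per kb in KO, and 50.3 and 41.4 in WT. Off chromosome 4 they were 42.9 and 39.25 in KO, and 48.2 and 41.2 in WT. The same was not computed over all autosomal islands, so it is not shown to be particular to the members. For pairs of islands, 1 from each list, that overlapped each other by at least 80%, the unscaled ratio of reads per kb, KO over WT, had a median of 0.972 for 17 pairs over members and 0.988 for 799 other pairs. Its range over the 17 pairs was 0.796 to 1.25. KO was higher in 7 of the 9 pairs on chromosome 4, where the median ratio was 1.04, and in 0 of the 8 pairs on other chromosomes, where the ratio was 0.796 to 0.972. The counts carry no scaling to library depth, so a ratio near 1 does not show equal enrichment.

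Of the 35 clusters, 19 had an island over a member in KO and 21 in WT, and in 14 clusters, with 57 members, no member had one in either library. The largest cluster, 25 genes on chromosome 13 from Zfp712 to Zfp273 (chr13:67038594-67827000), had 9 members with an island in KO and 9 in WT, 6 of them in both. Its members were covered over 78.4 kb in KO and 67.5 kb in WT, the largest excess of KO over WT in any cluster. Over its whole span the order turned, with 78.4 kb in KO and 118 kb in WT. This cluster holds the regulator of sex-limitation genes, which repress male-specific liver genes in mice. Rsl1 and Rslcan18 had no island in either library. Zfp708, a KRAB zinc finger gene beside Rslcan18, had 8.60 kb in KO and 12.6 kb in WT.

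The next cluster in size, 18 genes on chromosome 17 from Zfp677 to Zfp946 (chr17:21383707-22456689), had the largest excess of WT over KO. Its members were covered over 65.7 kb in KO and 99.2 kb in WT, and the same 7 genes had an island in each library. Zfp820 had 7.5 kb in KO and 21.3 kb in WT, but 0.5 kb more in KO when the less dense islands of each list, up to its median density, were left out. Zfp758 had 12 kb in KO and 23.5 kb in WT. The Zfp758 cover in KO lay wholly inside that in WT. On chromosome 7, the 15 genes from Zfp84 to Zfp146 (chr7:29768552-30169775) had 18.2 kb in KO and 47.4 kb in WT. In this cluster 3 members had an island in KO and 5 in WT, and Zfp568, which in mice represses a placental transcript of Igf2, had none in either. Zfp382 had 0 kb in KO and 14.3 kb in WT, and Zfp146 had 0 kb in KO and 10.01 kb in WT. Zfp30, of the same cluster, had no island in either library.

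Both clusters on chromosome 8 had little or no KO cover over their members. In the 5 genes from Zfp868 to Zfp866 (chr8:69610654-69774911), 0 members had an island in KO and 4 in WT, with 0 kb covered in KO and 25.9 kb in WT. Zfp964 had 0 kb in KO and 9.5 kb in WT, and Zfp866 had 0 kb in KO and 8.5 kb in WT. The KO list held 2 islands of 12 kb in all inside this span, neither of them over a member region. Within the span 8 kb was shared with WT islands, and KO cover took up 66.7% of the WT island over Zfp868, beyond the region of that gene. In the 4 genes from Zfp709 to Zfp961 (chr8:71882068-71970333), cover was 4.5 kb in KO and 21.9 kb in WT, and Zfp961 had 0 kb in KO and 8 kb in WT.

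**Figure D3:**
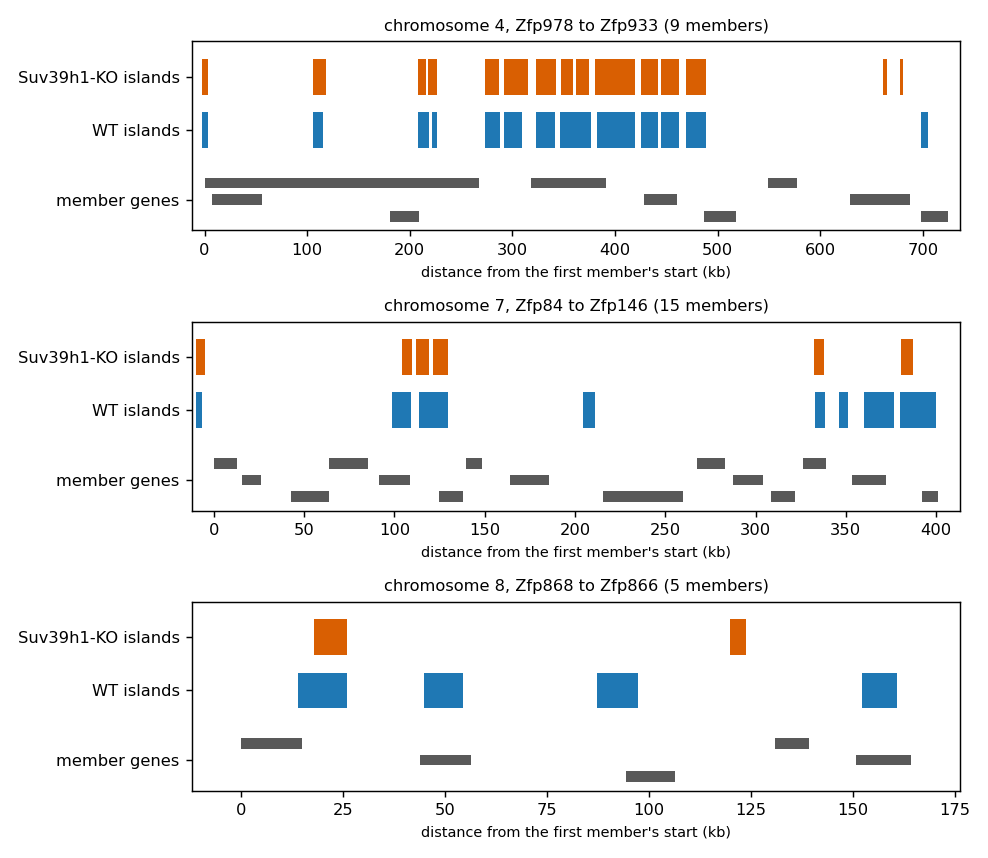
Islands of the KO library (upper row), islands of the WT library (middle row) and member genes (grey, staggered) in 3 clusters, by distance in kb from the first member's start. On chromosome 4 the islands of both libraries nearly coincide, and on chromosome 7 the WT islands are longer (47.4 kb over members, against 18.2 kb in KO). On chromosome 8 the 2 KO islands lie outside the member regions, with 8 kb shared with WT islands.

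The remaining large clusters are given next. The 12 genes on chromosome 17 from Zfp871 to Zfp101 (chr17:32765496-33394637) had 30.9 kb in KO and 36.8 kb in WT. They hold members that lie on opposite sides, with Zfp81 at 14.7 kb in KO and 27.7 kb in WT, and Zfp763 at 16.02 kb in KO and 8.02 kb in WT. The 10 genes on chromosome 7 from Zfp180 to Zfp94 (chr7:24081877-24316698) had 13.4 kb in KO and 23.6 kb in WT, and the KO cover over members was wholly shared. Over the whole span the order turned, with 34 kb in KO and 33 kb in WT. The 9 genes on chromosome 4 from Zfp978 to Zfp933 had 137 kb in KO and 134 kb in WT, the longest cover of any cluster. After the chromosome 13 cluster, the largest excess in KO was in the 4 genes on chromosome 18 from Zscan30 to Zfp24, with 13.2 kb in KO and 5.5 kb in WT, and in the 3 genes on chromosome 4 from Zfp992 to Zfp993, with 53.0 kb in KO and 47.5 kb in WT.

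**Figure D4:**
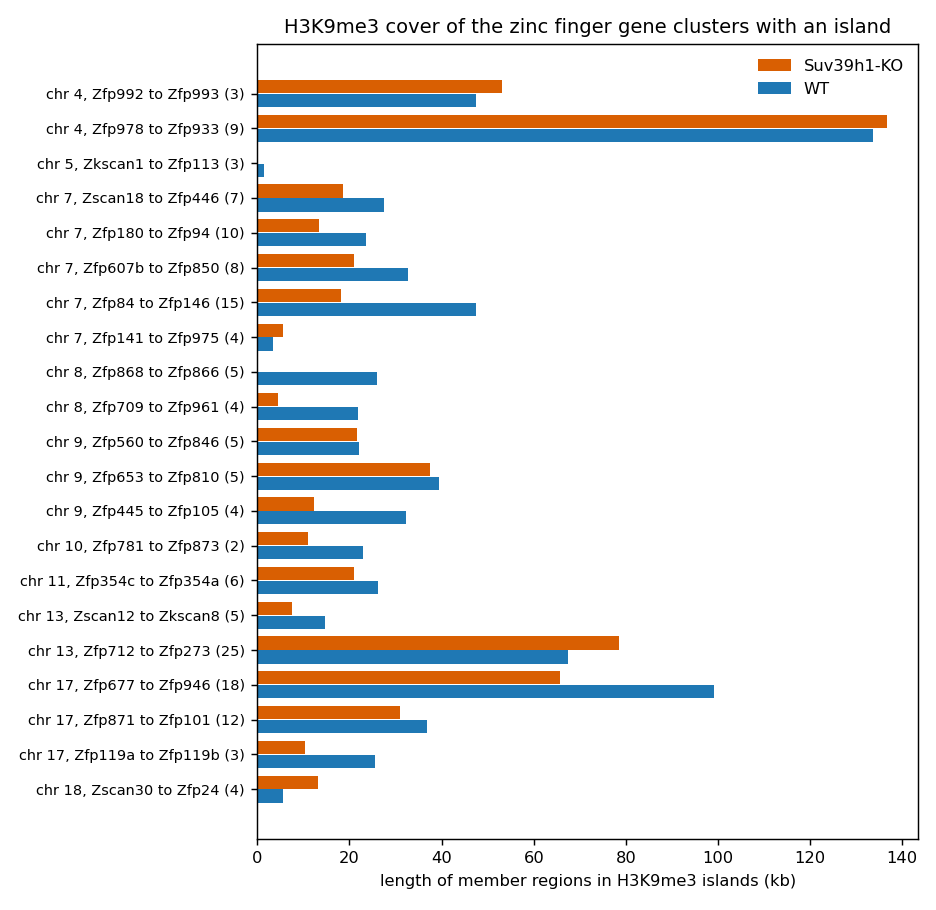
Length of member regions in H3K9me3 islands (kb) in the 21 clusters with an island, with the KO bar above the WT bar and the number of members in brackets. WT cover is longer in 16 clusters and KO cover in 5, among them both chromosome 4 clusters and the 25 genes of chromosome 13.

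The 14 clusters without an island over a member lay on several chromosomes, and the spans of 2 of them held islands outside the member regions. On chromosome 7 they included the 7 genes from Zfp787 to Zfp28 (chr7:6131489-6396637) and the 8 genes from Zfp553 to Zfp629 (chr7:127233061-127615785). On chromosome 6 the 7 genes from Zfp786 to Zfp746 (chr6:47815536-48086986) had none. Zscan4c, of a family active in mouse embryos at the onset of zygotic transcription, and Zfp819 also lay in such clusters. Members with no island had a median region of 18.6 kb, against 28.6 kb for members with islands in both libraries, 24.7 kb for those in KO alone and 18.9 kb for those in WT alone.

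Members covered in KO alone had short stretches of 0.261 to 9.63 kb. Zfp454 on chromosome 11 (chr11:50872718-50887634) had 9.63 kb in KO and 0 kb in WT. Zfp24, a zinc finger gene with a SCAN domain on chromosome 18, had 7.78 kb in KO and 0 kb in WT. Zfp273, Zfp984, Zfp953 and Zfp759 followed with 7.5, 7.5, 7.19 and 6.90 kb in KO and 0 kb in WT. Some of these KO islands were among the least dense of their list. The island over Zfp273 had 35.6 reads per kb (percentile 4.73) and that over Zfp953, which it shares with Zfp595, had 35.8 (percentile 5.38). Without the islands up to their list's median density, 4 of the 6 genes named here, Zfp24, Zfp273, Zfp953 and Zfp759, had no cover in either library. Zfp454 then kept 1.13 kb in KO, in an island that also lies over Zfp2 and was 88.9% covered by WT islands.

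Members covered in WT alone had 1.14 to 14.3 kb, with a median of 5.5 kb. Beside Zfp382, Zfp146, Zfp964, Zfp866 and Zfp961 above, Zfp959 on chromosome 17 had 0 kb in KO and 7.94 kb in WT. Here too 4 of the 6 genes, Zfp382, Zfp964, Zfp961 and Zfp959, had no cover in either library without the less dense islands. The WT island over Zfp382 had 38.5 reads per kb (percentile 26.6), and those over Zfp961, Zfp959 and Zfp964 lay at percentiles 30.01, 39.2 and 49.0 of their list. The WT island over Zfp146 had 53.65 reads per kb, at percentile 97.7, and 32.5% of it lay in KO islands beyond the Zfp146 region. A regulator of retroviruses and a regulator of imprinting were covered in both libraries. Zfp809, which silences murine leukaemia virus in embryonic stem cells (chr9:22225667-22254117), had 9.5 kb in KO and 19.6 kb in WT. Zfp445, which maintains imprints (chr9:122848910-122886851), had 9.5 kb in KO and 13 kb in WT, and its KO island lay inside its WT island. Zfp873 on chromosome 10 had 11 kb in KO and 23 kb in WT. In the other direction Zfp810 had 19.8 kb in KO and 10.8 kb in WT, though its KO island was below the median of reads per kb, so that above it 10.8 kb remained in WT alone. Zfp595 had 14.5 kb in KO and 5.5 kb in WT, which turned with equal numbers of islands. Zfp458 had 16.5 kb in KO and 11 kb in WT. Zfp809 and Zfp810, which differ in direction, lie in the same cluster.

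Outside chromosome 4 the mark lay mostly over the downstream part of the genes. Most gene starts of the members lay in no island, as over all genes. Strand was known for 186 members, 71 of them covered. Of the 53 covered in KO, the gene end lay in an island in 34 (64.2%) and the gene start in 6 (11.3%). Of the 63 covered in WT, the end lay in an island in 38 (60.3%) and the start in 9 (14.3%). Of all 186 members with known strand, covered or not, the start thus lay in an island in 6 in KO and 9 in WT, and the end in 34 and 38. Over all genes with known strand, covered or not, 3.99% had their start in a KO island and 3.56% in a WT island, and 5.25% had their end in a KO island and 4.31% in a WT island. The start share of the members was thus near that of all genes. Among the covered ones of all genes with known strand, the end lay in an island in 36.9% and the start in 28.1% in KO, and in 29.6% and 24.5% in WT. Covered isolated zinc finger genes had their end in an island in 11 of 27 cases in KO and 18 of 37 in WT, and their start in 2 of 27 and 2 of 37.

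The share of each gene in an island climbed along the gene in both libraries. In the first of 20 equal parts of the 71 genes, a mean of 7.14% was covered in KO and 11.8% in WT. In the sixteenth part it was 40.9% in KO and 60.1% in WT, and in the last part 47.5% in KO and 54.1% in WT. In percentage points the libraries thus lay closer in the first and the last part than in the sixteenth. Cover in the first part was low in both, and relative to WT cover the libraries lay further apart there than in the sixteenth. Downstream of the gene midpoint lay 65.3% of the gene-body cover in KO and 64.3% in WT, against 49.2% in KO and 48.5% in WT over all covered genes and 74.9% in KO and 68.5% in WT over isolated zinc finger genes. In the 8 covered chromosome 4 genes with known strand, the shares of summed cover were 44.7% in KO and 48.9% in WT. By gene, more cover lay downstream in 5 and upstream in 2 in KO, and downstream in 6 and upstream in 1 in WT. The 479 kb gene Zfp993 held 34.2 kb in KO and 33.7 kb in WT upstream of its midpoint, a large part of the upstream sums. Without chromosome 4 the shares were 76.1% in KO and 69.6% in WT. In those 63 genes, cover upstream of the midpoint was 76.1 kb in KO and 143 kb in WT, a ratio of 0.533, and downstream of it 243 kb in KO and 327 kb in WT, a ratio of 0.743. Whether these ratios differ could not be tested with 1 library per genotype.

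**Figure D5:**
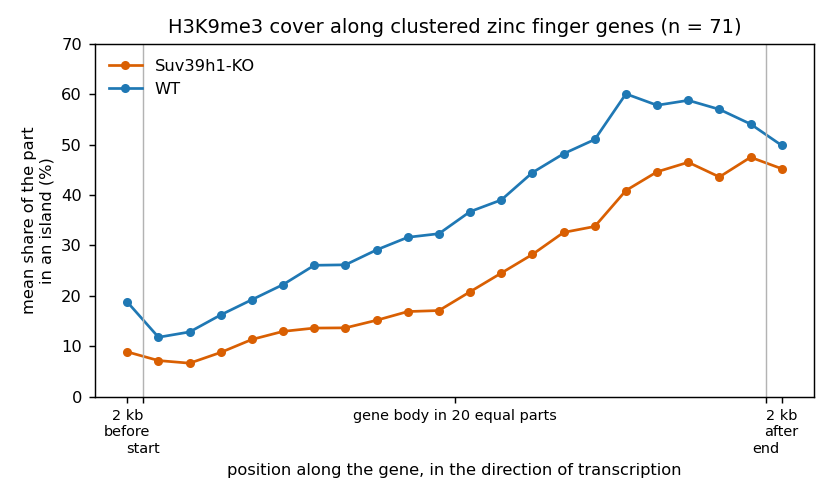
Mean share of each part of the gene in an H3K9me3 island (percent) for the 71 clustered zinc finger genes with known strand and an island in either library, from 2 kb before the start through 20 equal parts of the gene to 2 kb after the end, with 1 line for KO and 1 for WT. Both lines climb along the gene, to 47.5% in KO in the last part and 60.1% in WT in the sixteenth, and the KO line lies under the WT line throughout.

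Promoters (250 bases before to 50 after a gene start, from RefSeq, GRCm38.p6, which is mm10) were known for 186 members, with 204 starts. An island met 5 of them (2.45%) in KO and 10 (4.90%) in WT, 4 of them in both. Over all 20085 autosomal promoters of protein-coding genes the shares were 3.55% in KO and 3.24% in WT. The 4 met in both libraries belonged to chromosome 4 genes, namely Zfp993, Zfp981, Zfp982 and Zfp985. The dinucleotide CG, which reads the same on both strands, occurred a median of 6 times in the 11 member promoters met by an island and 11 times in the 193 others. Those on chromosome 4 held 4, 4, 5, 2 and 6 CG, and those elsewhere 9, 9, 29, 6, 10 and 19. The low median thus came largely from chromosome 4, where promoters in no island held 3 to 16. Over all promoters the median was 14, and 95.6% held at least 1 CG, while promoters in an island had a median of 2.

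The promoters below show a covered start, an uncovered one of the same gene, and close relatives. Each is given along its gene's strand with CG in capitals.
Zfp982, upstream start, chr4:147442864-147443163 (+), in no island: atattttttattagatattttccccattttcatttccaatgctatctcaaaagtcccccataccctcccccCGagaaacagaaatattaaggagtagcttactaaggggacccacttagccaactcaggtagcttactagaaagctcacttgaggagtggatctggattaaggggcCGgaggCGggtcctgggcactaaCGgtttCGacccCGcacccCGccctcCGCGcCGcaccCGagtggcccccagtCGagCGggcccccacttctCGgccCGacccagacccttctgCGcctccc
Zfp982, inner start, chr4:147492167-147492466 (+), in an island in KO and in WT: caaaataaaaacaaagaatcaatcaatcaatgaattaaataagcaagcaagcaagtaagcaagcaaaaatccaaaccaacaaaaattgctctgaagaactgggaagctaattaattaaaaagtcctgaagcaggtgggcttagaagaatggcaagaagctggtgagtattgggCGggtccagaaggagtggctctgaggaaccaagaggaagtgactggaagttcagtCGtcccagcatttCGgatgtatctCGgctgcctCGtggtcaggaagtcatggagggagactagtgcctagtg
Zfp985, chr4:147553027-147553326 (+), in an island in KO and in WT: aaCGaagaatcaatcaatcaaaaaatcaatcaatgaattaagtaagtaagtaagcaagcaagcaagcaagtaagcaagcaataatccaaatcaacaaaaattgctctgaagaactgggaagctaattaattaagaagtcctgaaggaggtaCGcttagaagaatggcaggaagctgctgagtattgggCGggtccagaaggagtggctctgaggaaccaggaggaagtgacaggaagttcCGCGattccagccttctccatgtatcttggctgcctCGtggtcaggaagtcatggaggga
Zfp979, chr4:147642459-147642758 (-), in no island: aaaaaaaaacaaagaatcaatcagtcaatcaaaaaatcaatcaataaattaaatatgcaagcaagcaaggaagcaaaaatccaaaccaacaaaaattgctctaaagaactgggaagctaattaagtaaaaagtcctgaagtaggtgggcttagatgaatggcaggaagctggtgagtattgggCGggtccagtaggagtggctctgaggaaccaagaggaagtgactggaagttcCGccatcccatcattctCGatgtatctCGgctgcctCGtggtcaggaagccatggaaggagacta
Zfp758, chr17:22361213-22361512 (+), in no island: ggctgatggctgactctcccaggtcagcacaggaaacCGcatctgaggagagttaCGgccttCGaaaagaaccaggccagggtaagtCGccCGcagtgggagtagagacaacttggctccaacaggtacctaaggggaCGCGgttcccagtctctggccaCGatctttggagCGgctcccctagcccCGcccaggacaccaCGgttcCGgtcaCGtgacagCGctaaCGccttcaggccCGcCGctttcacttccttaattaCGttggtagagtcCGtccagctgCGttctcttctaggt
The inner Zfp982 start and the Zfp985 start hold 5 and 6 CG and were 82.6% identical in a global alignment. The Zfp979 promoter was 84.9% identical to the inner Zfp982 promoter and holds 5 CG, but lay in no island in either library. The upstream Zfp982 start holds 16 CG and the Zfp758 start 20, and both lay outside the islands that cover much of these genes. Between Zfp758 and each chromosome 4 promoter the identity was 46.5% to 51.0%.

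Genes of the silencing pathway that this family works through did not stand out. Of 29 such genes, 4 (13.8%) had an island in KO and 4 (13.8%) in WT, near the 14.5% and 14.8% over all genes. Atf7ip, a partner of SETDB1, had 12 kb in KO and 11 kb in WT. Resf1, a cofactor of retroelement silencing, had 4.5 kb in KO and 18.6 kb in WT. Trim33, a relative of TRIM28, and the H3K9 demethylase gene Kdm4c had 9.5 kb each in KO and 0 kb in WT. Trim24, another relative of TRIM28, had 0 kb in KO and 19.5 kb in WT, and Tasor, a HUSH complex gene, had 0 kb in KO and 7.5 kb in WT. Trim28, Setdb1, Suv39h2 and Suv39h1 had no island in either library, which is no check of the Suv39h1 deletion.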

How the data were processed

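H3K9me3 islands of 1 KO and 1 WT library were analysed. Bowtie2, SICER 1.1 and the mm10 build are named in the submitters' processing notes. Not given in the sources used here are window, gap, threshold, duplicate handling and use of input. The deposited lists give, per island, a position and a whole-number count, read as ChIP reads, with no scaling to depth in the authors' values. Starts were converted to count from 1. Depth of the whole libraries is unknown.

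Genes came from RefSeq GRCm38.p6, leaving out 358 rows on scaffolds. Strand came from the RefSeq promoter table. A gene had an island when at least 1 bp of the gene with 2 kb on each side was covered. Cover and overlap were computed with Python 3.11.15 and pandas 2.3.3, and alignments with Biopython 1.88. The interval code was tested on simulated data. The members, lists and alternatives were chosen with earlier results of these data known, and the comparison of promoters, gene midpoints and chromosome 4 after the values were seen. Named genes are the 6 with the longest cover in KO alone, in WT alone and in both, the 4 with the largest difference each way, and members of known function. Finger counts per protein, planned, are not analysed here.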

Additional observations from a re-analysis of the deposited data

How the results depend on the processing

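No paired analysis was possible because there was 1 library of each genotype. Counts, lengths and ratios were called alike within 1.5 times, and 94 of 105 such values were. KO cover was shorter than WT cover in every setting run, with a ratio of 0.521 (equal numbers of islands, where KO islands alone are dropped) to 0.780 (relatives within 500 kb). When at least 50% of the region had to be covered, 9 members had an island in KO, 24 in WT and 4 in KO alone, and 8 clusters had one in KO. With equal numbers of islands the members were 36 in KO, 2 in KO alone and 37 in WT alone. Above the median of reads per kb, 4 were in KO alone. With 10 kb on each side WT cover was 1143 kb. Over whole cluster spans, chosen after the data were seen, cover was 883 kb in KO and 1315 kb in WT. Among named genes, the KO minus WT difference turned to 3.5 kb for Zfp982 with 10 kb on each side, to -4.5 kb for Zfp993 and -5.5 kb for Zfp595 with equal numbers of islands, and to -10.8 kb for Zfp810 and 0.5 kb for Zfp820 above the median of reads per kb. Of 170 differences of named genes over settings, 137 stayed within 1.5 times, 28 moved further or to 0 and 5 reversed. Zfp81 moved to -6.34 kb with 10 kb on each side and to -27 kb with equal numbers of islands, where Zfp458 and Zfp984 moved to 0 kb. The cause was not tested. With island calls at 1 depth per genotype, cover below the calling threshold is not seen.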

Other observations

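Among the genes of known function, some zinc finger genes fall outside the clusters. Zfp57, which keeps imprints in mouse embryos, Zfp600, Zfp932, Zscan4d and Zscan4f had no island in either library. Zfp37 had 9.96 kb in KO and 6.59 kb in WT.

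Inside the clusters, 2 genes of other families had islands in both libraries. Morc2b had 10.5 kb in KO and 6.50 kb in WT, and the overlapping gene Gm21062 had 6.42 kb in KO and 2.57 kb in WT. Islands were present in WT alone over Nkapl (2.95 kb), Gm7072 (5.63 kb), the olfactory receptor gene Olfr63 (4.28 kb) and 3300002I08Rik (0.955 kb).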
